A study of Mus musculus with 30 samples.

Results

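The genes that encode the RNA polymerases, the Mediator complex and the basal transcription factors were examined for binding of Menin and UTX in leukaemia cells. Members were the protein-coding genes whose symbols begin with Polr1, Polr2, Polr3, Gtf2 or Gtf3, or with Med or Taf followed by a digit. There were 105 of them among 21887 protein-coding genes in the RefSeq annotation of GRCm38.p6. RNA polymerase I transcribes the large ribosomal RNA genes, polymerase II transcribes protein-coding genes and polymerase III transcribes transfer RNA and 5S ribosomal RNA genes. Each enzyme is brought to its start sites by basal factors, which for polymerase II are TFIIA, TFIIB, TFIID, TFIIE, TFIIF and TFIIH. Mediator bridges activators bound to DNA and polymerase II. These genes are needed in nearly every cell, and a few have paralogs used mainly in germ cells.

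The 4 libraries analysed came from the mouse line WT-MA9, acute myeloid leukaemia cells in which a retroviral vector stably supplies the MLL-AF9 fusion. Chromatin immunoprecipitation with sequencing was done for Menin, a scaffold protein of the MLL1 and MLL2 methyltransferase complexes, and for UTX, a histone H3 lysine 27 demethylase of the MLL3 and MLL4 complexes. Cells had received MI-503, which blocks the contact of Menin with MLL1, or DMSO as vehicle, and were collected on day 4. The sources used here give no MI-503 concentration. The 4 groups were Menin in MI-503, Menin in DMSO, UTX in MI-503 and UTX in DMSO, with 1 library each, so no difference between treatments or antibodies has a replicate check and no p-value is given. Another 26 libraries of the 30 in the labels, some of them from the fibroblast line NIH-3T3, were not analysed here. Peak lists hold no expression values, so the identity of the cells could not be checked against marker genes.

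The lists held 8 peaks for Menin in MI-503, 11195 for Menin in DMSO, 14231 for UTX in MI-503 and 217 for UTX in DMSO. Both Menin lists were called against 1 vehicle input and both UTX lists against another. The number of reads at each summit was recovered from the deposited fold and p-value. The steps between these values showed that the MI-503 library for Menin held at least 1.35 times as many reads as the DMSO library. For UTX the DMSO library held at least 1.14 times as many reads as the MI-503 library. In each pair the shorter list therefore came from the deeper library. The shorter list of each pair also held narrower peaks. For Menin the narrowest peak was 62 bp in MI-503 and 179 bp in DMSO, and median widths were 70.5 and 272 bp. MACS2 counts reads extended to a fragment length, and the part of unlike extension in the lengths of the lists was not tested. Fold enrichment is the authors' value at the summit, (reads + 1) over (local background + 1). The lowest background was 0.827 reads in the UTX MI-503 list and 2.34 reads in the Menin DMSO list, so a given fold needs more reads in the Menin DMSO list. Folds were therefore ranked within a list and not compared in size between lists.

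A gene was counted as having a peak when a summit lay within 1 kb of its annotated start or end. Most members had a peak in both long lists, and almost none had one in either short list. No member had a Menin peak in MI-503, against 81 of 105 (77.1%, exact 95% interval 67.9 to 84.8%) in DMSO. The exact 95% interval computed for the count of 0 had an upper end of 3.45%. Over all protein-coding genes the shares were 0.00914% in the Menin MI-503 list and 31.2% in the Menin DMSO list. On the chromosomes that held a Menin MI-503 peak, the nearest summit lay 803366 bp from a member's boundary. For UTX, 87 of 105 members (82.9%, exact 95% interval 74.3 to 89.5%) had a peak in MI-503, against 3 (2.86%, 0.593 to 8.12%) in DMSO. The shares over all genes were 36.5% in the UTX MI-503 list and 0.777% in the UTX DMSO list. The direction of the difference between treatments was thus opposite for Menin and UTX, among members as over all genes. Intervals here and below cover counting error only.

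The UTX MI-503 and Menin DMSO lists, which differ in antibody and in treatment, met at the same members. Both peaks were present at 79 members (75.2%), against 28.4% of all genes. A UTX MI-503 peak without a Menin DMSO peak was present at 8 members (7.62%), against 8.1% of all genes. The reverse held for 2 members (1.9%), against 2.85% of all genes, and 16 members (15.2%) had neither, against 60.7% of all genes. Of the members with a UTX MI-503 peak 90.8% also had a Menin DMSO peak, against 77.8% over all genes. Of the members with a Menin DMSO peak 97.5% also had a UTX MI-503 peak, against 90.9% over all genes. No peak was counted for more than 1 member.

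**Figure D1:**
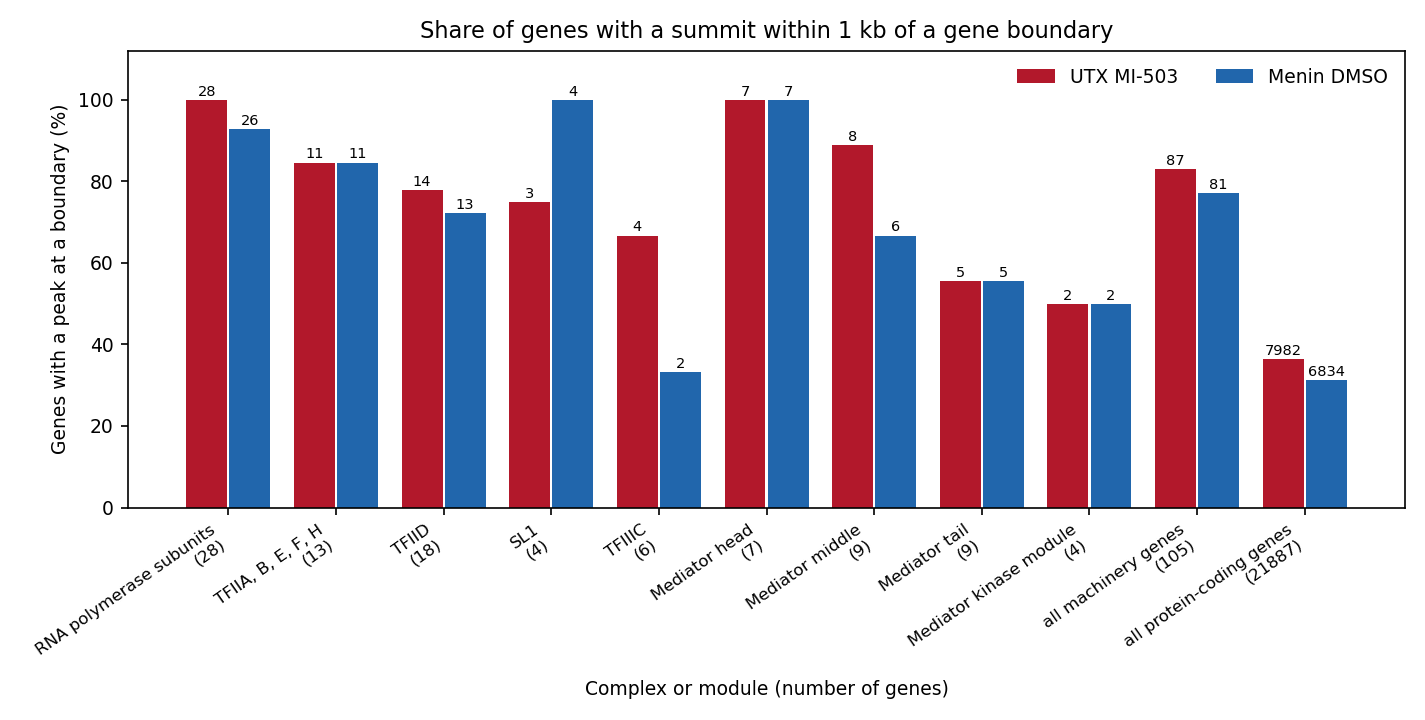
Share of genes with a peak in the UTX MI-503 list (red, left bar of each pair) and in the Menin DMSO list (blue, right bar), by complex or Mediator module, beside all 105 members and all protein-coding genes. Numbers above the bars count genes with a peak and numbers under the names count genes in all. Polymerase subunits as a family stand at 100% in the UTX MI-503 list and 92.9% in the Menin DMSO list. The Mediator head stands at 100% in both, and the Mediator tail and kinase module at 50 to 55.6%. The kinase module here is Med12, Med13 and their paralogs, without its kinases and cyclin.

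The 3 members with a UTX peak in both treatments were Taf6l, Polr2i and Polr3gl. Taf6l encodes a relative of TAF6 that sits in the SAGA coactivator, Polr2i a small subunit of polymerase II and Polr3gl a form of the RPC7 subunit of polymerase III. The peak at Polr2i held 34 reads in MI-503 (exact Poisson 95% interval 23.5 to 47.5) and 18 in DMSO (10.7 to 28.4). At Polr3gl there were 57 reads in MI-503 (43.2 to 73.9) and 26 in DMSO (17 to 38.1). Taf6l had 48 reads in MI-503 (35.4 to 63.6) and 19 in DMSO (11.4 to 29.7). At each gene the count was higher in MI-503, the shallower library, and the intervals were apart at Polr3gl and Taf6l and overlapped at Polr2i. The narrowest peak was 179 bp in the UTX MI-503 list and 127 bp in the UTX DMSO list. MACS2 counts reads extended to a fragment length, and the part of a longer extension in the higher counts was not tested. All 3 genes also had a Menin DMSO peak, at 15.5-fold for Taf6l, 6.71-fold for Polr2i and 4.57-fold for Polr3gl. When the UTX MI-503 list was reduced to its 217 peaks with the highest −log10 q, the length of the DMSO list, it held peaks at 1.03% of all genes and at 2 members, Gtf2h1 and Med13. Neither of them had a UTX DMSO peak.

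**Figure D2:**
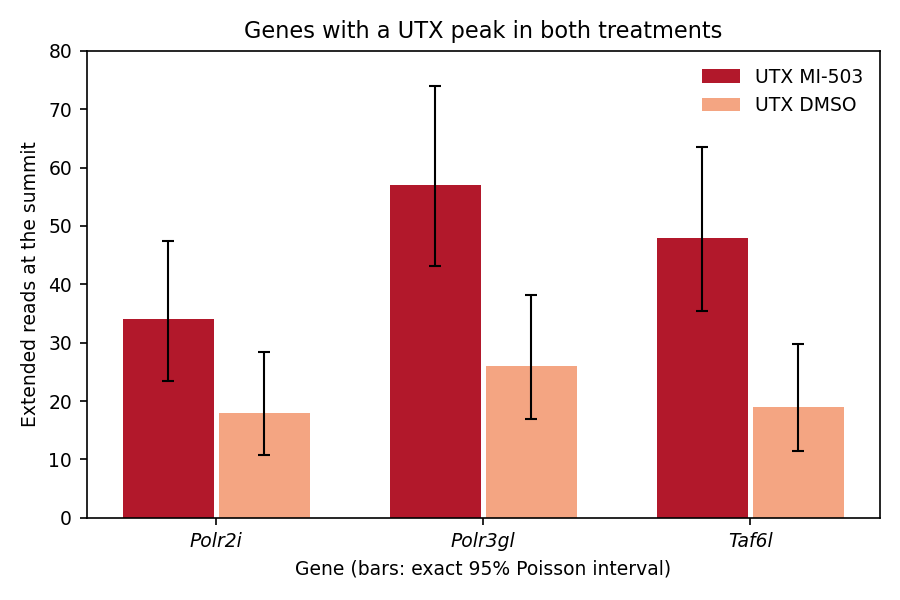
Extended reads at the summit of the UTX peak at the 3 members with a UTX peak in both treatments, in MI-503 (dark bars, left) and DMSO (light bars, right), with exact 95% Poisson intervals. MI-503 counts run between 34 and 57 and DMSO counts between 18 and 26.

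The promoters of 3 members show where these peaks lie in sequence. They were taken from RefSeq (GRCm38.p6, the assembly of mm10) and run 5′ to 3′ on the gene's strand, from 250 bases before to 50 bases after the listed start. Positions count from 0 at the listed start. Capitals mark CCAAT boxes (CCAAT), GC boxes (GGGCGG) and ETS cores (CCGGAAG) on either strand. Med6, a subunit of the Mediator head, had the highest Menin DMSO fold of all members, and its promoter is chr12:81594959-81595258, minus strand. Taf6l had the highest UTX DMSO fold, with its promoter at chr19:8786267-8786566, minus strand. Med19, a subunit of the middle module, had the highest UTX MI-503 fold among members without a Menin DMSO peak, with its promoter at chr2:84678152-84678451, plus strand. The promoter of Med13, which had the highest UTX MI-503 fold, is not shown because both of its summits lay upstream of the 300 bases.
Med6: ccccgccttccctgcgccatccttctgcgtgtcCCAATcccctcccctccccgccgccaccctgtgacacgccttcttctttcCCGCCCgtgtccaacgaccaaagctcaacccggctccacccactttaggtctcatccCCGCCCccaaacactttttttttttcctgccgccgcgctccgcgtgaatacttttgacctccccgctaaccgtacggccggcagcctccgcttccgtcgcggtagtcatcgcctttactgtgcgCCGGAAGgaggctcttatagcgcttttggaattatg
Taf6l: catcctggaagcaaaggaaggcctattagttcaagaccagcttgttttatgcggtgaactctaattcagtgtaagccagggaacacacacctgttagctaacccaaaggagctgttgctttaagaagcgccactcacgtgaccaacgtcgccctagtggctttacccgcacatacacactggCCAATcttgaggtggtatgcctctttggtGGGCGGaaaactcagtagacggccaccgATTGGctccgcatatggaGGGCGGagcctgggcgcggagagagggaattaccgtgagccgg
Med19: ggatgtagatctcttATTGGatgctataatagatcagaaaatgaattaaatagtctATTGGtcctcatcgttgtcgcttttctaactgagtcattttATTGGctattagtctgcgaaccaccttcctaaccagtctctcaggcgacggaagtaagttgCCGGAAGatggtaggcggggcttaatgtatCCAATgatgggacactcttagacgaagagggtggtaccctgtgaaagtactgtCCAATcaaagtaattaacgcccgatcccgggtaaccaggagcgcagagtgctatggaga
At Med6 the UTX MI-503 summit lay 108 bp and the Menin DMSO summit 107 bp before the start, both inside the GC box whose first base is at −110. At Taf6l the UTX MI-503 summit lay 1 bp after the listed start, the Menin DMSO summit 10 bp before it and the UTX DMSO summit 36 bp before it. The UTX DMSO summit thus fell within the GC box that begins at −39 and the Menin DMSO summit within the CCAAT box that begins at −11. At Med19 the UTX MI-503 summit lay 218 bp before the start, between the CCAAT boxes that begin at −235 and −194. A summit is the base with the most overlapping reads and does not resolve a binding site, so these positions are descriptions.

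Every polymerase subunit gene with a Polr symbol had a UTX peak in MI-503, 28 of 28, and 26 had a Menin peak in DMSO. Some of these peaks lay nearer to another gene, and the counts fell when each peak was given to its nearest gene alone, as described below. A few subunits of polymerases I and III carry older symbols in this annotation and are described at the end. The exceptions for Menin were Polr1b, the second largest subunit of polymerase I, and Polr3a, the largest subunit of polymerase III. Both had low UTX MI-503 folds, at 6.58 for Polr1b and 7.11 for Polr3a. Polr1b had a Menin summit just outside the window, 1611 bp from its boundary, with a fold of 9.39. Among the 28 subunits the UTX MI-503 fold had a median of 11 (5.84 to 23.5) and the Menin DMSO fold a median of 6.92 (3.74 to 14.5).

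All 8 polymerase II subunits had both peaks. Polr2a, whose product carries the catalytic site and the long C-terminal tail, had a UTX MI-503 fold of 13.5 (32 reads, interval of the fold 9.38 to 18.9) at chr11:69758393-69759144. Its Menin DMSO fold was 7.24 (30 reads, 4.96 to 10.2). Polr2b, the second largest subunit, had folds of 11.6 for UTX in MI-503 (7.38 to 17.4) and 11.7 for Menin in DMSO (8.63 to 15.6). The highest UTX MI-503 folds of the group were those of Polr2i, 18.6, and Polr2j, 15.3, both small subunits, and the highest Menin DMSO folds were those of Polr2b and Polr2g, 9.16. Polr2m, which encodes the polymerase-associated protein Gdown1, had folds of 9.18 for UTX in MI-503 and 6.45 for Menin in DMSO. The lowest in each list was Polr2c, at 8.21 for UTX in MI-503 and 6.22 for Menin in DMSO. The 8 subunits thus spanned 8.21 to 18.6 for UTX in MI-503 and 6.22 to 11.7 for Menin in DMSO.

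Of the subunits specific to polymerase I, 3 have a Polr1 symbol. Their UTX MI-503 folds were 5.84 at Polr1a, the largest subunit, 6.58 at Polr1b and 8.23 at Polr1e. The Menin DMSO fold of Polr1e was 14.5 (62 reads, 11.1 to 18.5), the highest of the 28 Polr genes. Polr1e thus stood at the 36.1st percentile of genes with a UTX MI-503 peak and at the 87.7th percentile of genes with a Menin DMSO peak. Polymerase III had 10 members with UTX MI-503 peaks at a median fold of 11, among them Polr3gl at 20.7. Its 9 Menin DMSO peaks had a median fold of 6.12, among them Polr3c at 9.36. Polr3gl had the opposite placing to Polr1e, at the 88.8th percentile for UTX in MI-503 and the 13.3rd for Menin in DMSO. Its 52 Menin reads stood over a background of 10.6 reads, the highest background of any member's Menin DMSO peak.

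Subunits shared between enzymes all had both peaks. Polr1c and Polr1d, used by polymerases I and III, had UTX MI-503 folds of 9.85 and 23.5 and Menin DMSO folds of 7.92 and 10.6. Of the 5 subunits common to all 3 enzymes, Polr2k had the highest UTX MI-503 fold, 22.9 (49 reads), and Polr2h the highest Menin DMSO fold, 14.3 (57 reads). Polr1d had 2 peaks in the window in each long list, and the peaks with the highest −log10 q lay apart. Its UTX MI-503 summit lay 136 bp upstream of the start, nearer to the neighbouring gene Lnx2, and the Menin DMSO summit lay 739 bp downstream.

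**Figure D3:**
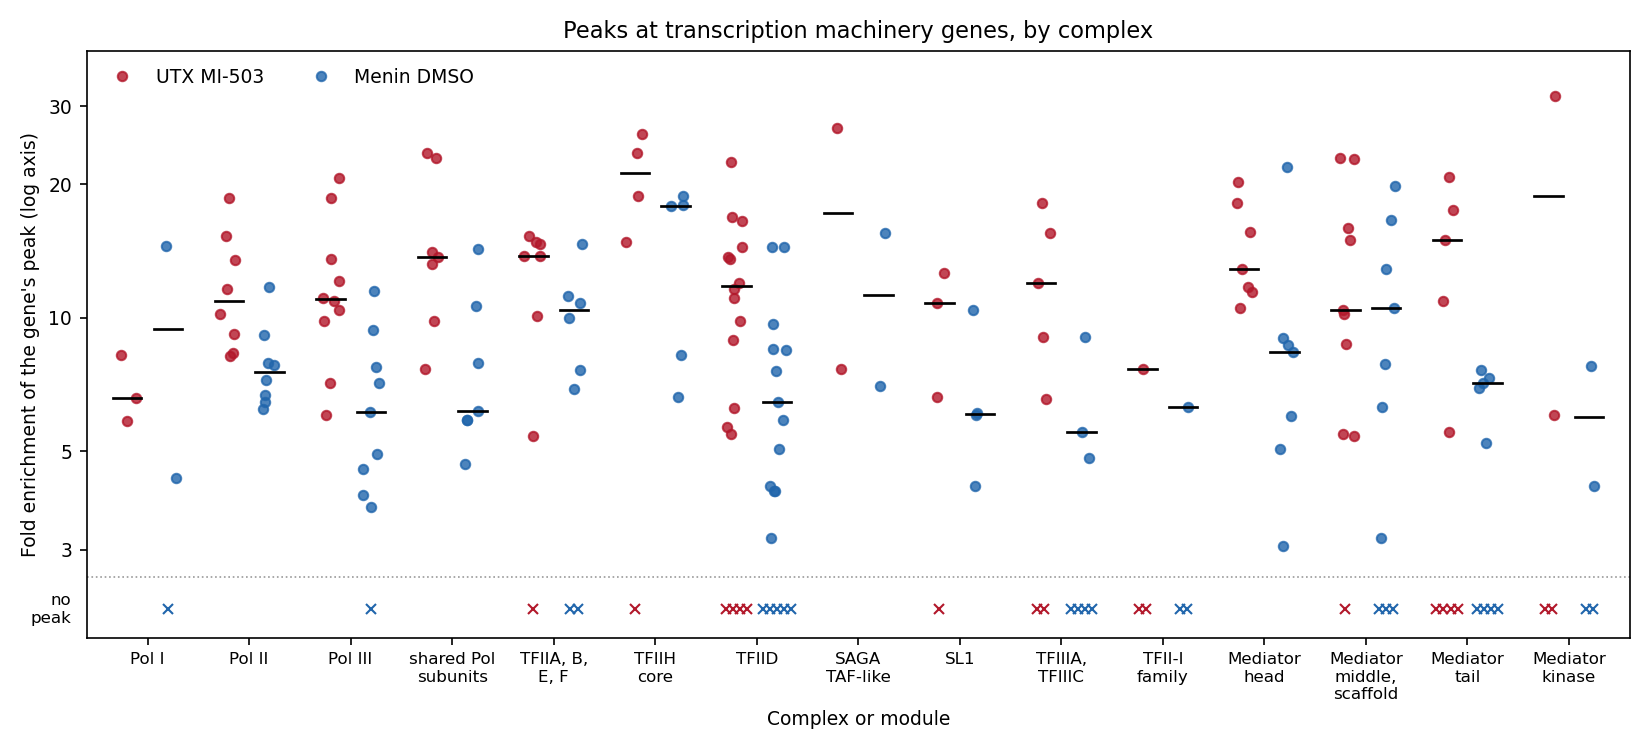
Fold enrichment (log axis) of the peak with the highest −log10 q at each of the 105 members in the UTX MI-503 list (red, left) and the Menin DMSO list (blue, right), by complex or module. Each point is a gene, black bars are medians, and crosses below the dotted line are genes with no peak in that list. TFIIH core genes have the highest median in each list among groups with 3 or more peaks. Crosses are most numerous at TFIID, which has 18 genes, and at the Mediator tail, which has 9. By share they are more frequent in the TFII-I family, where 2 of 3 genes have neither peak.

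Of the 13 genes for TFIIA, TFIIB, TFIIE, TFIIF and the TFIIH core, 11 had a peak for UTX in MI-503 and 11 had one for Menin in DMSO. TFIIH opens the DNA at the start site and also acts in nucleotide excision repair. Its 5 core genes held some of the most enriched peaks of all members. Gtf2h1, which encodes p62, had a UTX MI-503 fold of 26 (61 reads, 20 to 33.3) at chr7:46795529-46796329 and a Menin DMSO fold of 18 (80 reads, 14.4 to 22.4). Gtf2h3, for p34, had 23.5 (42 reads, 17.1 to 31.6) for UTX in MI-503 and 18.8 (81 reads, 15 to 23.3) for Menin in DMSO. Gtf2h5, for the small subunit TTDA, had 18.8 (35 reads, 13.3 to 26) for UTX in MI-503 and 17.9 (103 reads, 14.6 to 21.6) for Menin in DMSO. These 3 genes ranked at the 85.7th percentile or above in each list among genes with a peak.

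The remaining core genes of TFIIH differed. Gtf2h4, for p52, had folds of 14.8 for UTX in MI-503 and 6.62 for Menin in DMSO, but both summits lay at its transcription end and nearer to the neighbouring gene Vars2. Gtf2h2, for p44, had no UTX MI-503 peak. Its Menin DMSO peak, 8.25-fold with 47 reads, lay 909 bp upstream, the member summit nearest to the limit of the window in that list. At Gtf2h1 and Gtf2h3 the peaks also lay nearer to a boundary of another gene, Hps5 at Gtf2h1 and Eif2b1 at Gtf2h3.

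TFIIE and TFIIF had both peaks at both of their genes. Gtf2e1 had folds of 15.3 for UTX in MI-503 and 10.8 for Menin in DMSO, and Gtf2e2 had 13.8 for UTX in MI-503 and 14.7 for Menin in DMSO. Gtf2f1 had 14.8 for UTX in MI-503 and 11.2 for Menin in DMSO, and Gtf2f2 had 10.1 for UTX in MI-503 and 6.89 for Menin in DMSO. TFIIA had both peaks at Gtf2a1 (14.7 for UTX in MI-503 and 7.63 for Menin in DMSO) and at Gtf2a2 (13.8 for UTX in MI-503 and 9.99 for Menin in DMSO), and neither at Gtf2a1l, the paralog known from testis. Gtf2b, for TFIIB, which positions polymerase II at the start site, had the lowest UTX MI-503 fold of any member, 5.42 (13 reads), a value shared with Med31, and had no Menin DMSO peak.

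TFIID recognises the core promoter through TBP and its TAF subunits. Of its 18 genes, 14 had a peak for UTX in MI-503 and 13 had one for Menin in DMSO. Taf4b, a paralog of Taf4 known for its role in the ovary and testis, had the highest UTX MI-503 fold of the group, 22.5 (51 reads, 16.9 to 29.5), and a Menin DMSO fold of 14.4 (10.9 to 18.7). Taf4 itself had 9.85 for UTX in MI-503 and 8.45 for Menin in DMSO. Taf7 had 16.9 for UTX in MI-503 and 8.49 for Menin in DMSO, and Taf11, a histone-fold subunit, 16.5 for UTX in MI-503 and 14.4 for Menin in DMSO. Taf6 had a UTX MI-503 peak of 5.68 (10 reads) and no Menin DMSO peak. No boundary peak in either list was found at Taf1, the largest subunit, or at Taf7l, Taf7l2 and Taf9b. The SAGA subunits Taf6l and Taf5l, grouped apart from TFIID, had UTX MI-503 folds of 26.8 and 7.66 and Menin DMSO folds of 15.5 and 7.02.

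SL1 is the complex of TBP with 4 TAFs that directs polymerase I to ribosomal RNA genes. Its genes Taf1a, Taf1b and Taf1d had both peaks, with UTX MI-503 folds of 12.6, 6.64 and 10.8 and Menin DMSO folds of 10.4, 4.17 and 6.11. Taf1c had a Menin DMSO peak of 6.02 and no UTX MI-503 peak in the window, although a UTX summit of 5.47 lay inside the gene, 2788 bp from the boundary.

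Among the polymerase III factors, Gtf3a, for the 5S gene factor TFIIIA, had folds of 12 for UTX in MI-503 and 4.83 for Menin in DMSO. TFIIIC, which binds the internal promoters of transfer RNA genes, had a UTX MI-503 peak at 4 of 6 genes and a Menin DMSO peak at 2. The UTX MI-503 share was 66.7%, against 36.5% of all genes. The Menin DMSO share, 33.3%, was near the 31.2% of all genes. Gtf3c1 had 18.1 for UTX in MI-503 and 9.06 for Menin in DMSO, and Gtf3c2 had 15.5 for UTX in MI-503 and 5.52 for Menin in DMSO. Gtf3c4, 6.57, and Gtf3c6, 9.03, had UTX MI-503 peaks alone, and Gtf3c3 and Gtf3c5 had neither. The TFII-I family, whose genes enter by symbol although the proteins are regulatory factors, had both peaks at Gtf2i alone, 1 of 3 genes. That share, 33.3% in each list, was near those of all genes. Gtf2i had folds of 7.66 for UTX in MI-503 and 6.29 for Menin in DMSO. These peaks lay at its transcription end, 812 bp from the boundary for UTX in MI-503 and 784 bp for Menin in DMSO.

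Mediator had 30 genes, of which 23 had a peak for UTX in MI-503 and 21 had one for Menin in DMSO, with both at 21 genes. The share of genes with a peak varied among its modules. In the head, middle and Med14 scaffold, which form the core that contacts polymerase II, 16 of 17 genes had a peak for UTX in MI-503 and 14 had one for Menin in DMSO. The middle module alone had 8 of 9 for UTX in MI-503 and 6 of 9 for Menin in DMSO. In the tail, which binds activators, 5 of 9 (55.6%) had each, and in the kinase module 2 of 4 (50%) had each. The shares over all genes were 36.5% for UTX in MI-503 and 31.2% for Menin in DMSO, so neither module fell below them. With a 3 kb window 6 of 9 tail genes had a Menin DMSO peak. The groups are small, and no test was made between modules.

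All 7 head genes had both peaks. Med6 had 28 reads for UTX in MI-503 at a fold of 11.7 (7.92 to 16.8) and 85 reads for Menin in DMSO at a fold of 21.9 (17.6 to 27.1), in a Menin DMSO peak at chr12:81594920-81595424. It lay at the 60.2nd percentile of genes with a UTX MI-503 peak and at the 96.6th percentile of genes with a Menin DMSO peak. Med8 had the highest UTX MI-503 fold of the head, 20.2, and a Menin DMSO fold of 8.66, and Med22 had 18.1 for UTX in MI-503 and 8.37 for Menin in DMSO, both genes at summits nearer to another gene in the UTX MI-503 list. Med20 had 15.6 for UTX in MI-503 and 9 for Menin in DMSO. Med11 had a UTX MI-503 fold of 11.4 and the lowest Menin DMSO fold of any member, 3.06 (32 reads).

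In the middle module, Med26, the subunit that couples Mediator to elongation factors, was high in both lists. Its folds were 22.9 for UTX in MI-503 (47 reads, 17 to 30.3) and 19.8 for Menin in DMSO (88 reads, 15.9 to 24.3), in a UTX MI-503 peak at chr8:72548244-72548633. Med21, 22.8 for UTX in MI-503 and 12.9 for Menin in DMSO, and Med4, 15 for UTX in MI-503 and 16.6 for Menin in DMSO, were also high. Med9 ranked at percentile 77.8 of genes with a UTX MI-503 peak and at percentile 0.666 of genes with a Menin DMSO peak. Its folds were 15.9 for UTX in MI-503 and 3.19 for Menin in DMSO, where 28 reads for UTX stood over a background of 0.827 and 23 reads for Menin over one of 6.52. Med1, the subunit bound by nuclear receptors, and Med19 had UTX MI-503 peaks alone, at 8.72 and 10.2. Med14, on the X chromosome, had 5.47 for UTX in MI-503 and 10.5 for Menin in DMSO, both downstream of the start.

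The tail genes with both peaks were Med16, Med27, Med28, Med29 and Med30, with UTX MI-503 folds between 5.52 at Med27 and 20.8 at Med29 and Menin DMSO folds between 5.22 at Med30 and 7.64 at Med27. Med15, Med23, Med24 and Med25 had neither peak at a boundary. Their nearest UTX MI-503 summits lay 31781 bp away at Med15, 215019 bp at Med23, 6165 bp at Med24 and 3127 bp at Med25.

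The kinase module can dock on Mediator and block its contact with polymerase II. Med13, which links the module to the core, had the highest UTX MI-503 fold of all members, 31.6 (71 reads, 24.8 to 39.7), at chr11:86357963-86358519. Its Menin DMSO fold was 4.17 (27 reads, 2.8 to 6.01). It ranked at the 98.6th percentile of genes with a UTX MI-503 peak and at the 7.94th percentile of genes with a Menin DMSO peak, the widest such gap among the 79 members with both peaks. Both summits lay well upstream, at 746 bp for UTX in MI-503 and 711 bp for Menin in DMSO. Med12 had 6.02 for UTX in MI-503 and 7.79 for Menin in DMSO, and the paralogs Med12l and Med13l had neither peak.

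Over the 87 members with a UTX MI-503 peak the median fold was 12 (5.42 to 31.6), against 10.1 over all 7982 genes with such a peak. Median reads at the summit were 24 for members (9 to 71) and 20 for all genes. Over the 81 members with a Menin DMSO peak the median fold was 7.31 (3.06 to 21.9), against 7.34 over all 6834 genes, with median reads of 39 for members and 36 for all genes. Across the 79 members with both peaks the folds had a Spearman correlation of 0.32, and across all 6210 such genes 0.43. All points come from the same pair of libraries and inputs, and no p-value is given.

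**Figure D4:**
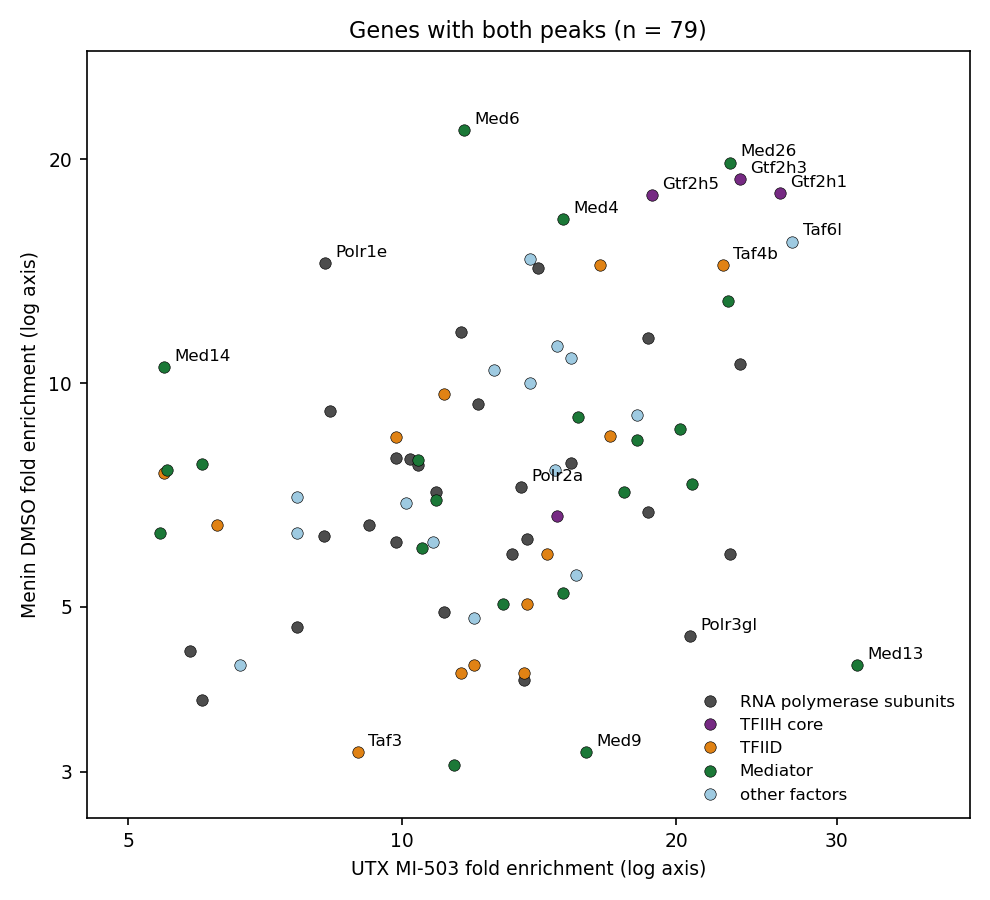
Fold enrichment in the UTX MI-503 list (horizontal, log axis) and in the Menin DMSO list (vertical, log axis) at the 79 members with both peaks, coloured by complex. The TFIIH core genes Gtf2h1, Gtf2h3 and Gtf2h5 are high on both axes, as is Med26, while Gtf2h4 is at 6.62 for Menin in DMSO. Med13 is farthest right, at 31.6 for UTX in MI-503 and 4.17 for Menin in DMSO. Med6 is highest, at 11.7 for UTX in MI-503 and 21.9 for Menin in DMSO.

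The 8 members with a UTX MI-503 peak alone were Med1, Med19, Polr1b, Polr3a, Gtf2b, Taf6, Gtf3c4 and Gtf3c6. Their UTX MI-503 folds had a median of 6.85 (5.42 to 10.2), against 13.2 for the 79 members with both peaks. The same order held over all genes, at 6.57 for a UTX MI-503 peak alone and 11.7 for both. A Menin DMSO peak alone was found at Taf1c and Gtf2h2, at 6.02 and 8.25.

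Of the 16 members with neither boundary peak, some had peaks inside the gene. At Taf1 the start listed for its promoter lay 5163 bp from the annotated boundary. A UTX MI-503 summit of 8.76 (15 reads) lay 0 bp from that listed start, in a peak at chrX:101532548-101532980, and a Menin DMSO summit of 9 (30 reads) lay 46 bp from it. At Med10, of the middle module, a UTX MI-503 summit of 9.85 lay 23 bp and a Menin DMSO summit of 5.8 lay 6 bp from a listed start. Gtf2ird2 had one of the most enriched UTX MI-503 peaks near any member, 27.8 (66 reads), at chr5:134184296-134184705. It lay 1977 bp from the boundary and 496 bp from the listed start, with a Menin DMSO summit of 7.81 at 546 bp. When listed promoter starts were used along with gene boundaries, Taf1, Med10 and Gtf2ird2 were added to both lists, giving 90 members for UTX in MI-503, against 39.4% of all genes, and 84 for Menin in DMSO, against 33.6% of all genes. That alternative was chosen after seeing the data. Med24 held an internal UTX MI-503 summit of 6.02. It also held 2 internal Menin DMSO summits, of 4.24 at 1656 bp from the boundary and of 4.09 farther in. Med25 held 2 internal UTX MI-503 summits, with a highest fold of 4.92.

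The other 11 members without a boundary peak were Med12l, Med13l, Med15, Med23, Gtf2a1l, Gtf2ird1, Gtf3c3, Gtf3c5, Taf7l, Taf7l2 and Taf9b, and none held a peak inside the gene in either list. The 16 members with neither peak had a median length of 39370 bp, against 14233 bp for members with both. Over all genes the order was the other way, at 14655 bp for genes with neither peak and 20500 bp for genes with both.

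Among 10 pairs of paralogous members, both genes had a UTX MI-503 peak in 4 pairs, 1 gene did in 5 and neither in 1. For Menin in DMSO both genes had a peak in 3 pairs, 1 gene in 6 and neither in 1. The pairs differed in which gene had the higher UTX MI-503 fold. It was higher at Taf4b (22.5, against 9.85 at Taf4), at Taf6l (26.8, against 5.68 at Taf6) and at Polr3gl (20.7, against 9.85 at Polr3g). Taf5l, 7.66, was below Taf5, 11.1. No boundary peak in either list was present at Gtf2a1l, Taf7l, Taf9b, Med12l, Med13l and Gtf2ird2. On the X chromosome 2 of 5 members, Med12 and Med14, had each peak, where the shares over 966 genes were 13.4% for UTX in MI-503 and 14.6% for Menin in DMSO.

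Nearly all peaks lay at the transcription start. Strand was known for 75 members with a UTX MI-503 peak, and 73 of these peaks (97.3%, exact 95% interval 90.7 to 99.7%) lay at the start, against 95.3% over all genes. For Menin in DMSO it was 68 of 70 (97.1%), against 95.8% over all genes. The peaks at the end were those of Gtf2i and Gtf2h4 in both lists. Relative to the start, the median summit position was −23 bp for UTX in MI-503 (−746 to 575) and −27.5 bp for Menin in DMSO (−909 to 739). The summit lay downstream of the start at 39.7% of members and 49.3% of all genes for UTX in MI-503, and at 38.2% of members and 39.4% of all genes for Menin in DMSO.

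**Figure D5:**
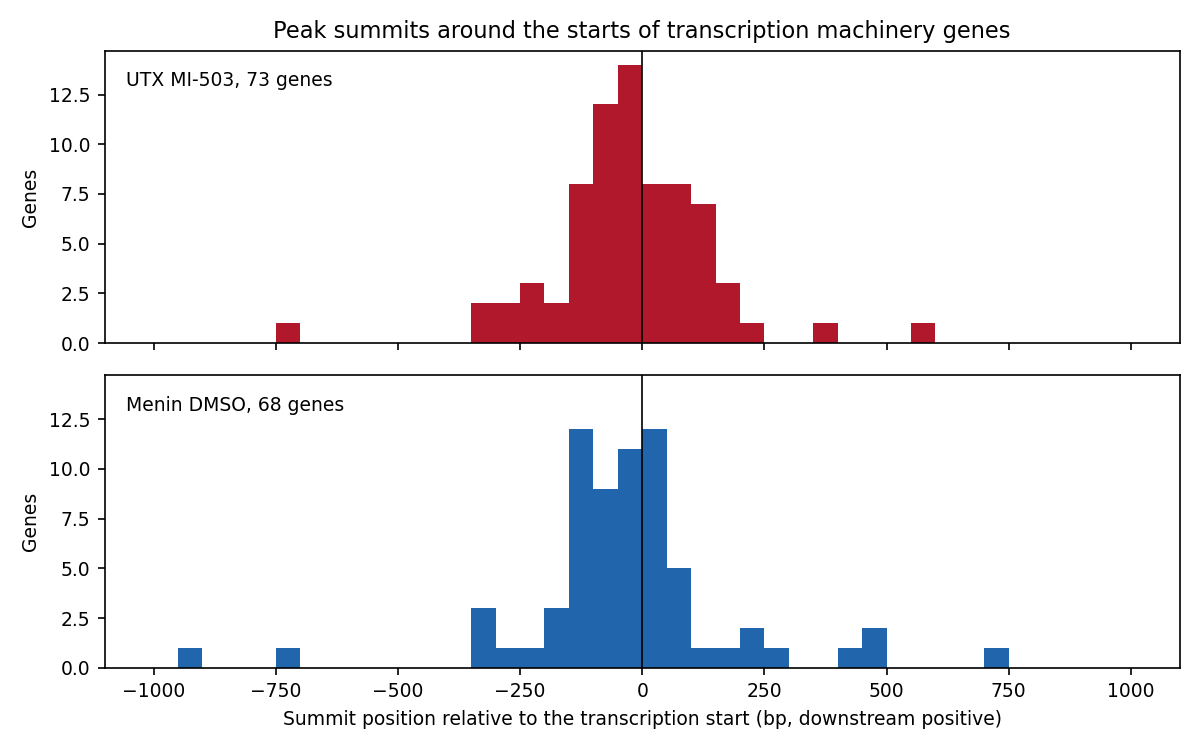
Number of members by position of the peak summit relative to the transcription start, in bins of 50 bp, with downstream positive, for 73 members in the UTX MI-503 list (upper panel) and 68 in the Menin DMSO list (lower panel). Both distributions centre just upstream of the start, with medians of −23 bp for UTX in MI-503 and −27.5 bp for Menin in DMSO.

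At the 79 members with both peaks, the UTX MI-503 and Menin DMSO peaks shared at least 1 bp at 77 (97.5%, exact 95% interval 91.2 to 99.7%), against 94.6% of the 6210 genes with both. The summits lay a median of 37 bp apart (0 to 875), against 39 bp over all genes, and within 100 bp of each other at 86.1% of members and 78.8% of all genes. The 2 members whose peaks did not overlap were Polr1d, with summits 875 bp apart, and Med31, of the Mediator middle module, with summits 421 bp apart. Only the peak with the highest −log10 q in each list was compared. Both genes had 2 Menin DMSO peaks in the window, and Polr1d also had 2 UTX MI-503 peaks. Overlap of the other peaks at these genes was not examined.

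Where another gene's boundary lies close by, a peak cannot be given to one of the genes. Of members with a UTX MI-503 peak, 31 (35.6%) shared the summit's window with another protein-coding gene, against 30.6% over all genes, and at 18 (20.7%) the other gene was nearer, against 14.7%. For Menin in DMSO the other gene was nearer at 18 members (22.2%), against 15.2% over all genes. When each peak was given to its nearest gene alone, an alternative chosen after seeing the data, 72 members kept a peak for UTX in MI-503, against 32.2% of all genes, and 64 kept one for Menin in DMSO, against 27%. The genes no longer counted included Gtf2h1, Gtf2h3, Gtf2h4 and Gtf2e1 in both lists.

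Promoter sequence was available from RefSeq for 91 of the 105 members and for 17492 genes in all. Exact letters were searched on both strands of the 300 bases, and different motifs overlapped in 1 member promoter. The ETS core CCGGAAG was found in 32 member promoters (35.2%), against 11.9% of all promoters and 24.5% of promoters of all genes with both peaks. The GC box GGGCGG was found in 57 (62.6%), against 46.3% of all promoters and 73.1% of promoters of all genes with both peaks. CCAAT, the letters bound by NF-Y, was found in 29 (31.9%), against 39.2% of all promoters and 45% of promoters of all genes with both peaks. TATAAA, the TATA box, was found in 11 (12.1%), against 13.3% of all promoters and 5.39% of promoters of all genes with both peaks. GCATGC, the core of the NRF1 site, was found in 11 (12.1%), against 8.23% of all promoters and 12.4% of promoters of all genes with both peaks. The 91 member promoters include those of members without both peaks. In the 68 promoters of members with both peaks, the shares were 36.8% for the ETS core, 66.2% for the GC box and 32.4% for CCAAT. They were 13.2% for TATAAA and 13.2% for GCATGC. The Med6 and Med19 promoters shown above hold an ETS core and the Taf6l promoter holds none. CpG made up a median of 7.69% of base steps in member promoters and 4.35% in all promoters, and its part in the motif shares was not tested.

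Another 38 genes of the same machinery have symbols that the rule does not cover, such as Tbp, the cyclin-dependent kinases of TFIIH and Mediator, and subunits of polymerase I and III with older names. Of these, 29 (76.3%) had a UTX MI-503 peak, against 36.5% of all genes, and 28 (73.7%) a Menin DMSO peak, against 31.2%. Both peaks were present at 24, and none had a peak in either short list. Over all genes the short lists reached 0.777% for UTX in DMSO and 0.00914% for Menin in MI-503. Among 10 genes for pausing and early elongation 9 had a peak for UTX in MI-503 and 10 had one for Menin in DMSO. In the same order, the counts were 6 and 5 of 9 for TFIIIB, SNAPc and Crcp. They were 4 and 3 of 5 for polymerase I initiation and 3 and 4 of 5 for the TFIIH kinase and helicases. For TATA-binding proteins they were 2 and 1 of 3, and for mitochondrial transcription 3 and 2 of 3. The highest UTX MI-503 folds among the 38 were 25.7 at Ccnh, the cyclin of the TFIIH kinase, and 21.8 at Nelfe, of the pausing complex NELF. The Menin DMSO folds were 16.5 at Ccnh and 14.3 at Nelfe. Tbp, the TATA-binding protein shared by the basal factors of all 3 polymerases, had 4.67 for UTX in MI-503 and 9.06 for Menin in DMSO. Of the polymerase I subunits with older symbols, Twistnb had 10.2 for UTX in MI-503 and 6.11 for Menin in DMSO, Znrd1 had 9.05 for UTX in MI-503 and 5.22 for Menin in DMSO, and Cd3eap had 4.92 for UTX in MI-503 and no Menin DMSO peak. Those with neither peak were Tbpl2, Snapc3, Crcp, Ubtf and Mnat1. Crcp encodes a subunit of polymerase III, so the count of 28 of 28 does not extend to every subunit of the enzymes.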

How the data were processed

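Peaks were called with MACS2 on mm10, per the submitters' processing notes, which give no version. Which aligner, filters and q cut-off the authors used is not stated in the sources used here. Each of the 4 deposited lists came from 1 library called against a vehicle input. The deposited fold ratio is (pileup + 1) over (local background + 1) at the summit. The deposited −log10 values are those of a p-value and a q-value per summit. The deposited score is −log10 q times 10, cut to a whole number. Positions are printed from 1.

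Reads at each summit were recovered by solving the fold and the Poisson p-value together, which gave whole multiples of 1 step, within 0.01 of a step, at all peaks. Absolute depth is unknown. Genes came from RefSeq (GRCm38.p6), with strand from the promoter table, which holds 91 members. Where a gene had several peaks in the window, the one with the highest −log10 q was used. Intervals are exact (Clopper-Pearson for shares, Poisson for reads) at 95%. No test was run between conditions, since each has 1 library. Fold intervals carry the error of the reads and treat the background as known. Genes were named as those with a peak in a short list, in 1 long list alone or in none, the 2 highest of each complex and the 5 highest of each long list, and paralog pairs. A few others are given to state ranges. A gene that this rule takes is not reported here. The members, complexes and lists were chosen with earlier results of these data known. Alternatives covered the window, thresholds, list length and definition of overlap. The code was tested on simulated data. Python 3.11.15, pandas 2.3.3 and scipy 1.17.1 were used.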

Additional observations from a re-analysis of the deposited data

How the results depend on the processing

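Of 71 alternatives over 22 results, 69 stayed within 1.5 times the count, or within the interval of the main median or share. Some of the 69 could not leave these limits. Equal list length left the Menin DMSO list whole, as the shorter long list, and a wider window cannot lower 28 of 28. Counts of 81 and 87 of 105 could fall out of the limit but not rise out of it. Reducing the UTX MI-503 list to 217 peaks left 2 members, and 1.03% of all genes. Requiring the UTX MI-503 and Menin DMSO peaks to share at least 50% of each gave an overlap of 86.1% at members, against 78.6% over all genes. Members with a UTX MI-503 peak otherwise numbered 72 to 90 and those with a Menin DMSO peak 64 to 85. No alternative gave a member a Menin MI-503 peak. A fold of at least 5 left 87 members for UTX in MI-503, against 35.2% of all genes, and 66 for Menin in DMSO, against 25%. At the limit of the window, the UTX MI-503 summits just inside lay at 812 bp (Gtf2i, 7.66-fold) and just outside at 1977 bp (Gtf2ird2, 27.8-fold). For Menin in DMSO they lay at 909 bp (Gtf2h2, 8.25-fold) and 1610 bp (Med1, 7.03-fold). No paired analysis was possible because each condition has 1 library and the labels carry no replicate numbers.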
